A study of Homo sapiens with 7 samples.

Results

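The 8 integrin beta chain genes of the human genome, ITGB1 to ITGB8, were followed in 769-P cells, a widely used line derived from a human clear cell kidney cancer. They were chosen by symbol, and all 8 were found among the 33117 genes listed for 7 RNA sequencing libraries. The libraries fall into 2 of Lat-M1 cells, 2 of Lat-M2 cells and 3 of PA cells. Lat-M stands for latent metastatic in the series title, and the labels expand neither PA nor the number after Lat-M. The labels give the same line, medium and serum for all 7 libraries and no treatment, and how the Lat-M cells were obtained is not given in the sources used here. Expression is in TPM, a relative abundance corrected for transcript length, so that levels of different genes can be set side by side.

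An integrin is a pair of an alpha and a beta chain that spans the membrane and ties the matrix outside to the actin cytoskeleton inside. The beta chain carries the tail that talin and kindlins bind, and it sets much of what the pair recognises. ITGB1 joins the widest range of alpha chains and forms collagen, laminin and fibronectin receptors. ITGB3, ITGB5, ITGB6 and ITGB8 each pair with the alpha-V chain (ITGAV), ITGB4 pairs with the alpha-6 chain in hemidesmosomes, and ITGB2 and ITGB7 are chains of leukocytes.

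The libraries set the frame for every value below. Across the tested genes Pearson's r was at least 0.9834 within a group, 0.9427 to 0.9466 between Lat-M1 and Lat-M2 libraries, 0.9383 to 0.9445 between Lat-M1 and PA libraries, and 0.9745 to 0.9779 between Lat-M2 and PA libraries. Together 4 structural RNAs (RMRP, RN7SK, RN7SL1 and RN7SL2) took 18.6 to 21.9% of all TPM in Lat-M1, 22.9 to 27.7% in Lat-M2 and 29.5 to 31.8% in PA libraries. Over the 16724 tested genes the median log2 fold change was 0.16 for Lat-M1 against PA, 0.137 for Lat-M2 against PA and 0.0111 for Lat-M1 against Lat-M2, and values after a scaling of libraries by their median ratio are given where they matter. Whether the libraries of a group came from separate cultures is not stated, so each p-value measures only the spread between these libraries. Depth is unknown, since TPM keeps no read totals. Of 10 renal and epithelial markers 7 averaged at least 1 TPM. Of the 2 kidney lineage factors listed, PAX8 averaged 84.2 TPM in Lat-M1, 77.8 TPM in Lat-M2 and 71.5 TPM in PA cells. PAX2, the other, averaged under 1 TPM over the 7 libraries. The epithelial genes CDH1 and KRT19 averaged at most 0.0163 and 0.0254 TPM in any group. These 7 did not move together: 2 were higher and 2 lower in Lat-M1 against PA (KRT8 -0.47 and EPCAM -0.48 on the log2 scale), 3 higher and none lower in Lat-M2 against PA, and 1 higher and 3 lower in Lat-M1 against Lat-M2 (KRT8 -1.06, KRT18 -0.68 and EPCAM -0.79). Their part in the results below was not tested.

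The beta chains spanned a wide range of levels. ITGB1 was the highest in every library, at 847 to 1095 TPM. In Lat-M1 cells it was followed by ITGB3, ITGB6, ITGB5, ITGB8, ITGB4, ITGB7 and ITGB2. In Lat-M2 cells the order below ITGB1 was ITGB6, ITGB5, ITGB8, ITGB4, ITGB3, ITGB7 and ITGB2, and in PA cells it was ITGB6, ITGB5, ITGB8, ITGB3, ITGB4, ITGB7 and ITGB2. Neighbours in these orders did not overlap between libraries of a group, except ITGB7 and ITGB2 in PA cells. ITGB3 thus had rank 2 of 8 in Lat-M1, rank 6 in Lat-M2 and rank 5 in PA cells. These ranks use 1 of the 2 ITGB3 identifiers described below. In Lat-M2 that identifier averaged 4.63 TPM and ITGB4 5.09 TPM, so their order would turn if the other identifier (4.49 TPM) were added.

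**Figure D1:**
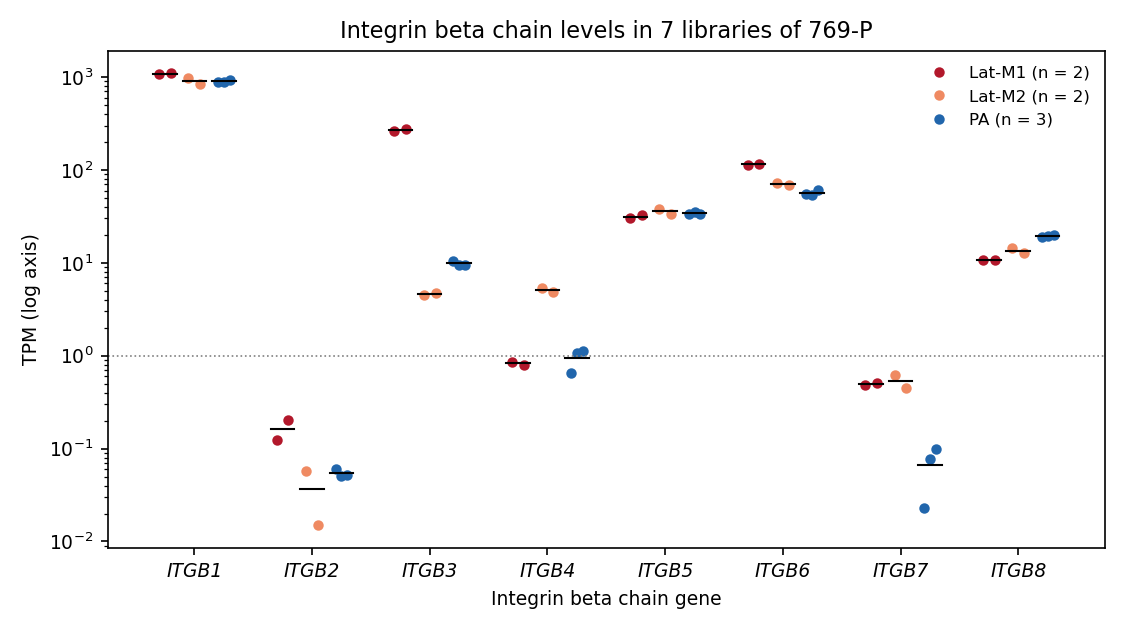
TPM of each integrin beta chain gene (log axis) in the 7 libraries, with points for libraries and bars for group means; the dotted line marks 1 TPM, the minimum mean over all libraries for a test. ITGB3 sits at 265 and 274 TPM in Lat-M1 against 4.53 to 10.4 TPM in all other libraries, while ITGB5 lies between 30.4 and 37.7 TPM throughout.

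The tests asked which beta chains set each Lat-M pair apart from PA cells and the pairs apart from each other. ITGB2 and ITGB7 had means under 1 TPM and were not tested, and ITGB4 passed that minimum through its Lat-M2 values alone, so that its calls below support nothing about the count of members. Of the 6 tested members, limma at an adjusted p under 0.05 called 3 higher (ITGB1, ITGB3 and ITGB6) and 1 lower (ITGB8) in Lat-M1 against PA. Among all tested genes 44.8% were called there, 33.2% higher and 11.6% lower, so that a call is common in this comparison. In Lat-M2 against PA 2 were higher (ITGB4 and ITGB6) and 2 lower (ITGB3 and ITGB8), where 14.9% of all tested genes were called, 12.7% higher and 2.24% lower. That share depends on which libraries enter the fit. Against 2494 genes called, 1125 to 1275 were called without 1 of the PA libraries and 1518 with the 2 compared groups fitted alone. The median log2 fold change over all tested genes was 0.0834 without Lat-M2 replicate 1 and 0.193 without Lat-M2 replicate 2. In Lat-M1 against Lat-M2 3 were higher (ITGB1, ITGB3 and ITGB6) and 2 lower (ITGB4 and ITGB8), against 36.0% of all tested genes, 20.1% higher and 16.0% lower. After scaling by the median ratio the split was 2 higher and 2 lower in Lat-M1 against PA (3933 higher and 3899 lower among all genes, in place of 5558 and 1941). It was 1 higher and 2 lower in Lat-M2 against PA (1152 and 1457 among all genes, in place of 2119 and 375), and 3 and 3 in Lat-M1 against Lat-M2 (3779 and 3564 among all genes, in place of 3354 and 2668). Both comparisons with PA use the same 3 PA libraries, and the values for each are therefore given side by side with no test of their likeness.

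The median log2 fold change of the 6 tested chains was 0.0966 for Lat-M1 against PA, 0.0411 for Lat-M2 against PA and 0.0364 for Lat-M1 against Lat-M2, with members on both sides of 0 in each comparison. The libraries of the compared groups did not overlap for 5 of 6 tested members in Lat-M1 against PA, 3 higher and 2 lower (68.0% of all tested genes, 48.9% higher and 19.0% lower). The same held for 4 of 6 in Lat-M2 against PA, 2 higher and 2 lower (49.8%, 42.2% higher and 7.59% lower), and for 6 of 6 in Lat-M1 against Lat-M2, 3 higher and 3 lower (68.3%, 35.6% higher and 32.8% lower). The counts for these last 2 comparisons take in ITGB4, which was tested only because of its Lat-M2 values and adds no support to them.

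**Figure D2:**
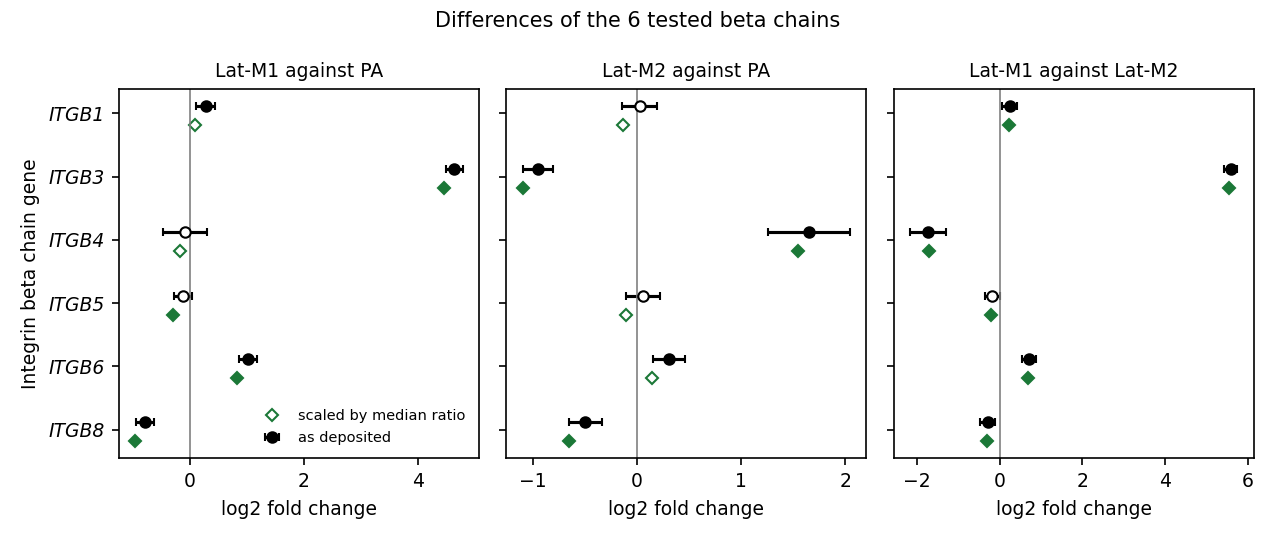
Log2 fold changes on the log2(TPM + 1) scale of the 6 tested beta chains in the 3 comparisons; circles with 95% confidence intervals from limma are values as deposited, diamonds are values after scaling by the median ratio, and filled symbols passed an adjusted p of 0.05. The x axes differ in range: ITGB3 reaches 4.64 in Lat-M1 against PA and -0.95 in Lat-M2 against PA, and open circles mark the 5 differences that missed the test as deposited.

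ITGB3, the beta-3 chain of the vitronectin and fibrinogen receptors, changed most, and its direction differed between the 2 Lat-M pairs. It stood at 265 and 274 TPM in the Lat-M1 libraries, at 4.53 and 4.74 TPM in the Lat-M2 libraries, and at 10.4, 9.58 and 9.57 TPM in the PA libraries. No library of one group overlapped another group, with Lat-M1 far above and Lat-M2 below PA. On the TPM scale the mean in Lat-M1 was 27.3 times that in PA, and the mean in Lat-M2 was 0.470 times that in PA. The log2 fold change was 4.64 ± 0.063 for Lat-M1 against PA (SE; limma adjusted p = 4.37e-08), the 12th largest rise among the 16724 tested entries. ITGB3 fell by 0.95 ± 0.063 on the log2 scale in Lat-M2 against PA (SE; limma adjusted p = 0.0003). The difference between the pairs themselves was 5.59 ± 0.069 (SE; limma adjusted p = 4.37e-08), the second largest rise and the 4th largest difference in either direction of all tested entries. The files list ITGB3 under 2 Ensembl identifiers, ENSG00000259207.3, used here, and ENSG00000259753.1. The second is annotated by GENCODE v29 as an overlapping locus of its own, its TPM was 90.9 to 103% of the first in each library, and how reads were shared between them is not given in the sources used here. Its rise in Lat-M1 against PA (4.66) also ranked above that of the first. In Lat-M1 against Lat-M2 it was the only entry with a larger rise than the first, so no other gene rose more than ITGB3 there. Bulk RNA cannot tell more ITGB3 RNA per cell from more cells that express it.

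ITGB3 took a large part of the beta chain RNA in Lat-M1 cells. Of the summed TPM of all 8 chains it made up 17.8 ± 0.168% in Lat-M1 (SD, n = 2), 0.446 ± 0.0588% in Lat-M2 (n = 2) and 0.970 ± 0.0592% in PA (n = 3), while the share of ITGB1 was 71.7 ± 0.302% for Lat-M1, 87.6 ± 0.570% for Lat-M2 and 88.1 ± 0.122% for PA. If both ITGB3 entries are added together, the ITGB3 shares become 30.0% in Lat-M1, 0.873% in Lat-M2 and 1.89% in PA. The sum over the 8 chains was 1499 and 1531 TPM in Lat-M1, 1119 and 971 TPM in Lat-M2, and 1009, 1002 and 1043 TPM in PA libraries. Both Lat-M1 libraries lay above all PA libraries, and the Lat-M2 libraries lay 1 above and 1 below them.

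ITGB5, the beta-5 chain of another vitronectin receptor, passed the test in no comparison as deposited. Its levels were 30.4 and 32.4 TPM in Lat-M1, 37.7 and 33.7 TPM in Lat-M2, and 33.3, 35.7 and 33.7 TPM in PA libraries. The Lat-M1 values lay just below all PA values, and the Lat-M2 values overlapped them. Its log2 fold change was -0.12 in Lat-M1 against PA (95% confidence interval -0.29 to 0.043; limma adjusted p = 0.199) and 0.056 in Lat-M2 against PA (-0.11 to 0.22; limma adjusted p = 0.61). For Lat-M1 against Lat-M2 it was -0.18 (-0.36 to 0.0021; limma adjusted p = 0.113). These intervals allow a modest change either way, and after scaling ITGB5 was lower in Lat-M1 than in PA (-0.30, limma adjusted p = 0.00271) and lower in Lat-M1 than in Lat-M2 (-0.20, limma adjusted p = 0.0219).

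ITGB6 and ITGB8 encode the 2 chains that, paired with alpha-V, bind latent TGF-beta and release it in active form. ITGB6 is known from epithelia and ITGB8 from epithelial, neural and immune cells. They were the tested members whose 4 Lat-M values all lay on one side of the 3 PA values, ITGB6 above and ITGB8 below. The stretches around their starts are therefore shown. The share of all tested genes with this trait was not counted, so it serves only to choose the sequences. Each sequence runs from 250 bases before to 50 bases after the RefSeq start, on the build GRCh38.p14, with every CG dinucleotide in capitals. CG reads the same on both strands and occurs in 96.0% of the 35116 such windows. ITGB6 lies at chr2:160200223-160200522 on the minus strand and ITGB8 at chr7:20330650-20330949 on the plus strand.
ITGB6: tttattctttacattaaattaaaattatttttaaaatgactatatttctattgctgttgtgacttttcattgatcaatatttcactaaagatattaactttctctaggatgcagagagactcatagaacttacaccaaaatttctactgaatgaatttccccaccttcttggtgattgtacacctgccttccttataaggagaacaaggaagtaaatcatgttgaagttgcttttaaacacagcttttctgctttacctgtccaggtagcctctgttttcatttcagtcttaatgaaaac
ITGB8: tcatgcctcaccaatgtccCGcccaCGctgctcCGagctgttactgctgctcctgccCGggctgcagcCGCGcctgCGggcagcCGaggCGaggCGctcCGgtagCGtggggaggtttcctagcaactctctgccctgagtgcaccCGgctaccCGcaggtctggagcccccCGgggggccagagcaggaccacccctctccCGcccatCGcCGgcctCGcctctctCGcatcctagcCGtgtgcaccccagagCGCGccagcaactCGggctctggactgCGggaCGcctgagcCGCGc
The ITGB6 window holds no CG, as do 3.96% of all windows, and is 31.7% G and C. The ITGB8 window holds 28 CG and is 71.7% G and C, against a median of 14 CG and 58.7% over all windows, and 26.2% of windows hold at least as many. Entries were found for 5 of the 8 members, and none for ITGB2, ITGB3 and ITGB4.

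ITGB6 was highest in Lat-M1 and lowest in PA cells. Its levels were 113 and 117 TPM in Lat-M1, 71.8 and 68.0 TPM in Lat-M2, and 55.0, 53.9 and 60.1 TPM in PA libraries, with no overlap between any 2 groups. It rose in Lat-M1 against PA (log2 fold change 1.02 ± 0.065, SE; limma adjusted p = 2.71e-05) and was higher in Lat-M1 than in Lat-M2 (0.71 ± 0.071; limma adjusted p = 0.00033). The smaller rise in Lat-M2 against PA (0.31 ± 0.065; limma adjusted p = 0.0249) missed the test after scaling, at 0.15 (limma adjusted p = 0.0503), and without Lat-M2 replicate 1, PA replicate 1 or PA replicate 2 in the fit.

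ITGB8 took the opposite course. Its levels were 10.8 TPM in both Lat-M1 libraries, 14.3 and 12.7 TPM in Lat-M2, and 19.0, 19.5 and 19.7 TPM in PA libraries, again with no overlap. It fell by 0.78 ± 0.067 on the log2 scale in Lat-M1 against PA (SE; limma adjusted p = 0.00011) and fell by 0.49 ± 0.067 in Lat-M2 against PA (limma adjusted p = 0.00672). The median of all genes moved the other way, and after scaling the falls were -0.96 and -0.65. Lat-M1 was lower than Lat-M2 by a log2 fold change of -0.29 ± 0.074 (limma adjusted p = 0.0197), a call that ended without either Lat-M1 library or without Lat-M2 replicate 1 (limma adjusted p at most 0.0873 over all alternatives). The ratio of ITGB6 to ITGB8, which no scaling of a library can change, was 10.4 and 10.8 for the Lat-M1 libraries, 5.03 and 5.35 for the Lat-M2 libraries, and 2.90, 2.76 and 3.05 for the PA libraries.

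The 4 chains that pair with alpha-V had a different makeup in Lat-M1. Their sum, with ITGB1 left out, was 419 and 435 TPM for Lat-M1, 128 and 119 TPM for Lat-M2, and 118, 119 and 123 TPM for PA libraries. ITGB3 made up 63.2 ± 0.0812% of it in Lat-M1 (SD, n = 2), 3.75 ± 0.316% in Lat-M2 (n = 2) and 8.24 ± 0.562% in PA (n = 3). ITGB6 was the main chain of the 4 in Lat-M2 (56.5 ± 0.792%) and in PA (47.0 ± 1.71%), and it made up 26.9% in Lat-M1. Their partner ITGAV stood at 781 and 803 TPM in Lat-M1, 363 and 336 TPM in Lat-M2, and 285, 270 and 286 TPM in PA libraries, 2.83 times the PA mean in Lat-M1 (limma adjusted p = 2.5e-06) and 1.25 times in Lat-M2 (limma adjusted p = 0.0164). The 4 chains together amounted to 0.537 and 0.541 of the ITGAV level in Lat-M1, 0.354 in both Lat-M2 libraries, and 0.413, 0.440 and 0.431 in PA libraries. The sums, shares and ratios of this paragraph use 1 of the 2 ITGB3 identifiers. With both added, the sums, the ITGB3 shares and the ratios to ITGAV would be higher, most of all in Lat-M1.

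**Figure D3:**
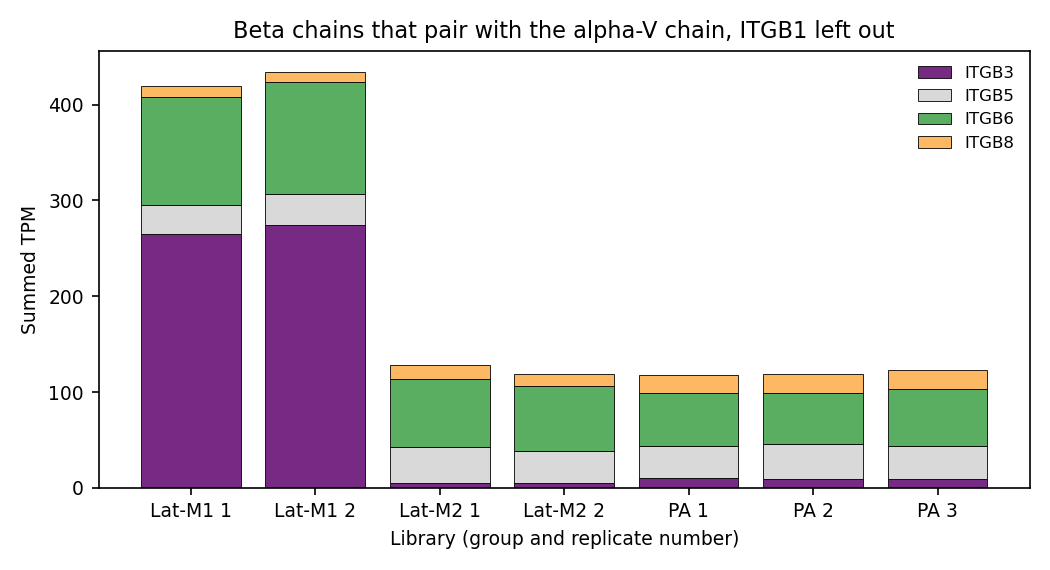
Summed TPM of ITGB3, ITGB5, ITGB6 and ITGB8 in each library, stacked by gene. The 2 Lat-M1 libraries reach 419 and 435 TPM, mostly ITGB3, and the other 5 libraries lie between 118 and 128 TPM with ITGB6 as the largest part.

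ITGB1, the common beta-1 chain, moved little. It stood at 1079 and 1095 TPM in Lat-M1, 984 and 847 TPM in Lat-M2, and 891, 882 and 919 TPM in PA libraries. Lat-M1 lay above both other groups, and the Lat-M2 libraries lay on both sides of PA. Its rise in Lat-M1 against PA (log2 fold change 0.28 ± 0.071, SE; limma adjusted p = 0.0166) shrank to 0.092 after scaling (limma adjusted p = 0.136). Against PA, Lat-M2 gave 0.026 (95% confidence interval -0.14 to 0.19; limma adjusted p = 0.828), a direction that turned on scaling. For Lat-M1 against Lat-M2 it was 0.25 ± 0.078 (limma adjusted p = 0.0415), and leaving out any 1 of 6 libraries, all but Lat-M2 replicate 1, ended that call (limma adjusted p at most 0.158 over all alternatives).

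ITGB4, the long-tailed beta-4 chain of hemidesmosomes, was highest in Lat-M2 cells. Its levels were 0.863 and 0.797 TPM in Lat-M1, 5.36 and 4.83 TPM in Lat-M2, and 0.654, 1.08 and 1.12 TPM in PA libraries. Both Lat-M2 libraries lay above all others, and Lat-M1 overlapped PA. The mean in Lat-M2 was 5.36 times that in PA on the TPM scale, and the log2 fold change was 1.65 ± 0.17 (SE; limma adjusted p = 0.00182). Lat-M1 was lower than Lat-M2 (-1.73 ± 0.18; limma adjusted p = 0.000403), and Lat-M1 against PA gave -0.083 (95% confidence interval -0.48 to 0.31; limma adjusted p = 0.717). Since ITGB4 entered these tests only through Lat-M2, the fit with no minimum level bears on it more directly, and there the limma adjusted p was 0.00514 for Lat-M2 against PA and 0.00121 for Lat-M1 against Lat-M2. ITGA6, which encodes its only known partner chain, stood far higher, at 52.8 and 53.5 TPM in Lat-M1, 44.8 and 38.0 TPM in Lat-M2, and 33.4, 33.6 and 35.7 TPM in PA libraries. The ratio of ITGB4 to ITGA6 was 0.0156 ± 0.00104 for Lat-M1 (SD, n = 2), 0.123 ± 0.00534 for Lat-M2 (n = 2) and 0.0277 ± 0.00705 for PA cells (n = 3).

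ITGB7, which pairs with the alpha-4 and alpha-E chains on lymphocytes, was low throughout but above PA in all 4 Lat-M libraries. It was at 0.483 and 0.503 TPM in Lat-M1, 0.615 and 0.454 TPM in Lat-M2, and 0.0229, 0.0777 and 0.0992 TPM in PA libraries. With no minimum level, limma over 32367 genes gave log2 fold changes of 0.49 ± 0.094 for Lat-M1 against PA (SE; adjusted p = 0.0139) and 0.52 ± 0.094 for Lat-M2 against PA (adjusted p = 0.0402), and -0.038 for Lat-M1 against Lat-M2 (95% confidence interval -0.29 to 0.22; adjusted p = 0.879). Of its partners, ITGAE averaged 8.77 TPM in Lat-M1, 10.5 TPM in Lat-M2 and 10.8 TPM in PA cells, and ITGA4 averaged at most 0.006 TPM in any group.

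ITGB2, the beta-2 chain common to the leukocyte integrins, was at 0.125 and 0.202 TPM in Lat-M1, 0.0579 and 0.0150 TPM in Lat-M2, and 0.0605, 0.0512 and 0.0523 TPM in PA libraries. Lat-M1 lay above both other groups, and with no minimum level its differences missed the test (limma adjusted p = 0.0836, 0.822 and 0.0777 for Lat-M1 against PA, Lat-M2 against PA and Lat-M1 against Lat-M2). ITGB2-AS1, an antisense gene at the same locus, was listed at 0.0365 to 0.348 TPM. No counting by strand is stated, so reads of the 2 genes cannot be told apart. Its alpha partners ITGAM and ITGAD were nevertheless above 1 TPM in some groups. ITGAM averaged 4.74 TPM in Lat-M1, 2.37 TPM in Lat-M2 and 1.64 TPM in PA. ITGAD averaged 0.0324, 1.21 and 4.70 TPM in Lat-M1, Lat-M2 and PA. It was lower in both pairs against PA (log2 fold change -2.47 and -1.37, limma adjusted p = 1.63e-05 and 0.00199). The mean of ITGAD over the 7 libraries reached the minimum level through its PA values, so these 2 calls add no support.

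Markers of cells known for ITGB2, ITGB7 and ITGB3 were near 0. Of 10 leukocyte markers 6 were listed, none with a mean of 1 TPM, and their sum was 0.0854 to 0.389 TPM in Lat-M1, 0.133 to 0.299 TPM in Lat-M2 and 0.0719 to 0.180 TPM in PA libraries. PTPRC, the pan-leukocyte marker, was at 0 in all Lat-M libraries. Of 6 megakaryocyte and platelet markers, among them ITGA2B, which joins ITGB3 on platelets, 2 were listed, with a sum of at most 0.132 TPM in any library. Endothelial markers summed to at most 0.0853 TPM over 4 listed genes of 6, with CDH5 at 0 in all libraries. Fibroblast markers summed to 20.0 to 21.7 TPM in Lat-M1, 3.10 to 4.10 TPM in Lat-M2 and 1.41 to 1.76 TPM in PA libraries over 7 of 7 genes. Nearly all of this was COL1A1, the only 1 of the 7 with a mean of at least 1 TPM. COL1A2, PDGFRA, DCN, LUM and THY1 averaged at most 0.0319 TPM in any group, and PDGFRB averaged under 1 TPM over the libraries.

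Partners of the beta chains were counted over lists chosen by name, to be read against the shares called and the medians over all tested genes given above. Alpha chains had 6 of 9 tested members higher and 2 lower in Lat-M1 against PA (median 0.44), led by ITGAV, ITGAD, ITGA1 (1.97), a collagen receptor chain, and ITGAM (1.13). Lat-M2 against PA had 1 higher, ITGAV, and 1 lower, ITGAD (median -0.00079, with 1 and 2 after scaling). In Lat-M1 against Lat-M2 6 were higher and 1 lower (median 0.43, with 6 and 3 after scaling). The counts against PA take in ITGAD, which reached the minimum level through its PA values and adds no support to them.

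Proteins that bind beta chain tails had 10 of 16 genes higher and 2 lower in Lat-M1 against PA (median 0.45; 8 and 4 after scaling). TLN1, which encodes talin-1, the link from the beta tail to actin, averaged 276 TPM in Lat-M1, 137 TPM in Lat-M2 and 117 TPM in PA cells (log2 fold change 1.24 in Lat-M1 against PA, limma adjusted p = 1.52e-05). The tensin genes TNS1 (1.75) and TNS3 (1.19) rose as well, and DAB2, an endocytic adaptor, fell by 1.13. Against PA, Lat-M2 had 3 higher, TNS3 (0.65), NUMB (0.39) and FERMT1 (0.82), the epithelial kindlin, and DAB2 was lower (-0.32; median 0.22). FERMT1 was lower in Lat-M1 than in Lat-M2 (-1.51, limma adjusted p = 0.000803). In that comparison 10 genes of the list were higher and 4 lower (median 0.43).

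Adaptors and kinases of adhesion complexes had 18 of 22 tested genes higher and none lower in Lat-M1 against PA (median 0.72; 16 and 1 after scaling). The smallest p-values were those of ACTN1, an actin crosslinker (log2 fold change 1.60), ILK, the integrin-linked pseudokinase (1.21), LIMS2, which binds it (2.57), and LPP (1.37). ILK averaged 201 TPM in Lat-M1, 75.7 TPM in Lat-M2 and 86.3 TPM in PA cells. Of the same list 5 were higher and none lower in Lat-M2 against PA (median 0.16; 4 and 4 after scaling), among them LPP (0.61), LIMS2 (0.91), SRC (0.42) and TRIP6 (0.53). ILK, at -0.19 in Lat-M2 against PA, missed the test as deposited (limma adjusted p = 0.0683) and was called lower after scaling (-0.35, limma adjusted p = 0.00245). In Lat-M1 against Lat-M2 16 were higher and 2 lower (median 0.66).

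Matrix ligands of the alpha-V integrins split in both directions. In Lat-M1 against PA 5 of 10 were higher and 4 lower (median 0.94), in Lat-M2 against PA none was higher and 3 were lower (median 0.017; 5 lower after scaling), and in Lat-M1 against Lat-M2 7 were higher and 3 lower (median 0.99). THBS1, thrombospondin-1, averaged 1237 TPM in Lat-M1, 197 TPM in Lat-M2 and 183 TPM in PA cells (log2 fold change 2.75 in Lat-M1 against PA, limma adjusted p = 1.38e-07). CTGF, another matricellular protein, rose as well (3.57), and EDIL3, a secreted ligand of alpha-V integrins, fell by 4.10 there and by 2.76 in Lat-M2 against PA. FN1, fibronectin, was at 317 and 350 TPM in Lat-M1, 20.6 and 18.6 TPM in Lat-M2, and 89.1, 90.3 and 95.5 TPM in PA libraries. Like ITGB3 it was above PA in Lat-M1 and below PA in Lat-M2 (log2 fold change 1.85 and -2.17, limma adjusted p = 2.56e-06 and 1.04e-05).

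Genes listed by name for latent TGF-beta, the ligand of ITGB6 and ITGB8 pairs, had 4 of 6 higher and 1 lower in Lat-M1 against PA (median 0.45, with 3 and 1 after scaling). TGFB1 averaged 34.1 TPM in Lat-M1, 19.4 TPM in Lat-M2 and 17.6 TPM in PA cells (log2 fold change 0.92 in Lat-M1 against PA, limma adjusted p = 9.65e-05). LTBP2, which shares the family name of the latent TGF-beta binding proteins, rose by 2.21 in the same comparison, and LTBP1 was lower (-0.46). Against PA, Lat-M2 had LTBP4 (1.47) and LTBP3 (0.59) higher and TGFB3 lower (-0.56; median 0.16). Lat-M1 against Lat-M2 had 3 higher and 2 lower (median 0.34).

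Hemidesmosome genes that work with ITGB4 were tested in 6 cases. Where ITGB4 rose, in Lat-M2 against PA, 2 were higher and none lower (median 0.19). Among them was LAMB3, a laminin chain (0.45), which missed the test after scaling (limma adjusted p = 0.0561). In Lat-M1 against PA, where ITGB4 missed the test, 4 were higher and 1 lower (median 0.66), with LAMB3 (1.71) and CD151, a tetraspanin (0.85), higher and LAMA3 lower (-0.36). In Lat-M1 against Lat-M2 3 were higher and 1 lower (median 0.57).

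The cell surface ligands of ITGB2 and ITGB7 integrins had 3 of 4 tested genes higher and none lower in Lat-M1 against PA (median 0.99; 3 and 1 after scaling), 2 higher and none lower in Lat-M2 against PA (median 0.14; 1 and 0 after scaling), and 2 higher and none lower in Lat-M1 against Lat-M2 (median 0.56). VCAM1, a ligand of the ITGA4 and ITGB7 pair, was at 76.0 and 77.2 TPM in Lat-M1, 41.8 and 36.6 TPM in Lat-M2, and 3.75, 4.07 and 3.39 TPM in PA libraries. Its log2 fold change was 4.03 in Lat-M1 against PA and 3.08 in Lat-M2 against PA (limma adjusted p = 1.38e-07 and 9.28e-06). ICAM1, the main ligand of the beta-2 integrins, was higher in Lat-M1 than in PA (log2 fold change 1.55) and at -0.00029 in Lat-M2 against PA (limma adjusted p = 0.999).

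**Figure D4:**
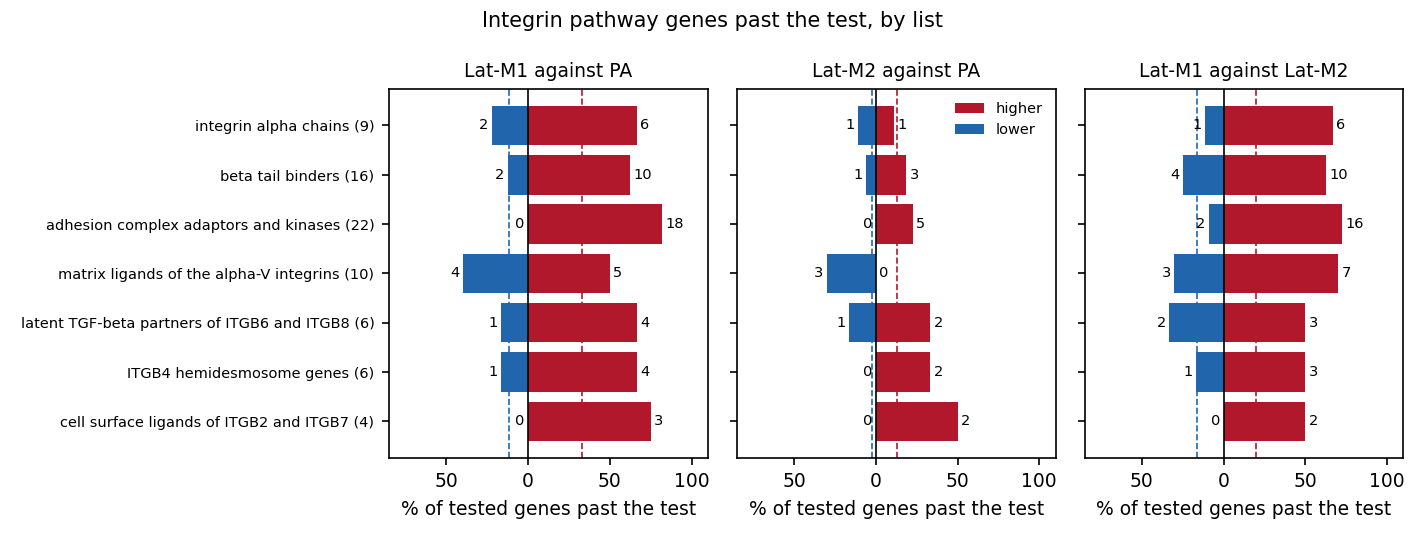
Share of tested genes of each integrin pathway list called higher (red, to the right) and lower (blue, to the left) in the 3 comparisons, with the number called beside each bar and the number tested after each name; dashed lines mark the shares of all tested genes. Adhesion complex adaptors and kinases have 18 of 22 genes higher in Lat-M1 against PA and 5 of 22 in Lat-M2 against PA.

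ITGB3 had the widest range of the 8 members over the libraries, and the genes most like it were looked up among 11442 others that averaged 5 TPM or more. By Pearson's r of log2(TPM + 1) over the 7 libraries, which fall into 3 groups, the 5 closest were PGM2L1 (r = 0.998), a glucose 1,6-bisphosphate synthase, NTN1 (0.998), which encodes netrin-1, SNURF (0.997), GRB14 (0.997), an adaptor of the insulin receptor, and TUBB2A (0.997), a tubulin. NTN1 averaged 17.3 ± 0.619 TPM in Lat-M1 (SD, n = 2), 2.28 ± 0.113 TPM in Lat-M2 (n = 2) and 3.53 ± 0.286 TPM in PA (n = 3). In all, 58 genes (0.507%) reached an r of 0.99 with ITGB3, given as a description with no test.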

How the data were processed

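RNA sequencing libraries were made from total RNA of 769-P cells with either of 2 kits, and the labels do not assign a kit to a library. TopHat2 2.2.4 and the genome hg19 are named in the submitters' processing notes. Values in the deposited files are TPM, a unit inferred from column sums of about 1e+06. The quantifier, annotation and filters are not given in the sources used here. Depth and counting intervals are therefore unknown.

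Of the 33117 listed genes, the 16724 with a mean of at least 1 TPM were tested as log2(TPM + 1) with limma 3.58.1 (R 4.3.3, trend and robust options) in 1 fit of 3 groups, with Benjamini-Hochberg adjustment over all tested genes at 0.05. Fold changes of genes near 0 are understated on this scale. There were 161 symbols with more than 1 identifier. For a named gene among them the identifier of highest mean TPM stood for the gene. Counts, shares and ranks over all tested genes take every identifier as an entry of its own. Every member was named, with up to 4 genes per list by smallest p in the comparison described, alpha chains known as partners, and the 5 genes most like the member of widest range; 1 list gene that this rule names is not reported here. Members and lists were chosen with earlier results of these data known. The test was tried on simulated data. Alternatives were a pseudocount of 0.1, no filter, a minimum mean of 5 TPM, scaling by the median ratio, leaving out 4 structural RNAs, the compared groups alone, the replicate number as a block and leaving out each library. Promoter sequences came from RefSeq (GRCh38.p14), another build than that of the files, which hold no positions.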

Additional observations from a re-analysis of the deposited data

Results flagged for a closer look

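The effects of the 2 Lat-M pairs against PA differed for 5 of the 6 tested beta chains, by the test of Lat-M1 against Lat-M2, which called 36.0% of all tested genes. ITGB4 is 1 of these 5 and passed the minimum level through its Lat-M2 values alone, so its call adds no support to that count. The log2 fold change between the pairs was 5.59 for ITGB3, higher in both Lat-M1 libraries and lower in both Lat-M2 libraries than in any PA library. It was -1.73 for ITGB4, 0.708 for ITGB6, 0.251 for ITGB1 and -0.29 for ITGB8. ITGB6 and ITGB8 moved the same way in both pairs against PA and differed in size, though the ITGB6 call in Lat-M2 against PA ended in 7 of 14 alternatives. In Lat-M1 against Lat-M2 the ITGB1 call ended in 9 of 14 alternatives and the ITGB8 call in 5 of 14. With the groups fitted alone or with the replicate block 3 members were called there. No group had the 4 libraries needed to look for single libraries far from the rest.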

How the results depend on the processing

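Over 252 values of the 18 member differences, 215 kept their direction and their side of the threshold, 26 lost a call, 5 gained one and 6 turned. ITGB3 in all 3 comparisons, ITGB4 in Lat-M2 against PA and in Lat-M1 against Lat-M2, ITGB6 in Lat-M1 against PA and in Lat-M1 against Lat-M2, and ITGB8 against PA in both pairs kept their calls under every alternative that could test them (ITGB4 was below the minimum mean of 5 TPM). The 6 that turned were uncalled differences in Lat-M2 against PA: ITGB1 was -0.136 after scaling, -0.0788 without structural RNAs and -0.0827 without Lat-M2 replicate 1, and ITGB5 was -0.101, -0.0458 and -0.0227 under the same settings. Without Lat-M2 replicate 2 they were 0.134 and 0.135. The cause was not tested. Using the other ITGB3 identifier, or the sum of both, was an alternative chosen after seeing the data.

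Members called numbered 3 to 4 when single libraries were left out in Lat-M1 against PA and in Lat-M2 against PA. In Lat-M1 against Lat-M2 they numbered 3 to 5, with 3 when the compared groups were fitted alone and 3 with the replicate block. Genes called over all tested genes numbered 4679 (without Lat-M1 replicate 2) to 7932 in Lat-M1 against PA when single libraries were left out, against 7499. In Lat-M1 against Lat-M2 they numbered 3815 to 5852, against 6022, the lowest being 3815 and 3947 without either Lat-M1 library. The count in Lat-M2 against PA was 492 without Lat-M2 replicate 1, 1125 to 1275 without 1 PA library, 1558 and 1564 without a Lat-M1 library, and 3162 without Lat-M2 replicate 2. In Lat-M2 against PA they numbered 1529 with no filter, 1518 with the groups alone and 943 with the replicate block, against 2494. Only PA has a replicate 3, so the block takes PA replicate 3 out of the fold changes. They equal those without that library (ITGB3 4.621 in Lat-M1 against PA in both), and these 2 alternatives are not independent. Without structural RNAs the split in Lat-M1 against Lat-M2 was 3090 higher and 4401 lower, against 3354 and 2668. Deviations from the group mean had an r of -0.082 to 0.0312 over 6 pairs of libraries with the same replicate number. In a group of 2 libraries these deviations mirror each other, so the 6 values are not separate checks. They cannot decide whether libraries of the same number share more than a number. With a lone library left in a group, that library is assumed to vary like the others. The counts of members called take in ITGB4, which passed the minimum level through its Lat-M2 values alone. Depth is unknown and sets no limit that can be stated.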
